A study of Rattus norvegicus with 4 samples.

Results

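The genes of intraflagellar transport, of the BBSome and of axonemal dynein were followed in ribosome footprints from cultured heart muscle cells after knockdown of Cpeb4. Members were taken by gene symbol (Ift, Bbs, Dnah, Dnai or Dnal followed by a number, Dync2, and Kif3a, Kif3b or Kif3c), which gave 40 of the 22250 genes in the count tables. The family was chosen with its footprint values in this same comparison already known, so the differences between groups are given as a description and not as an independent test. The cells were ventricular cardiomyocytes isolated from Wistar rats at 1 to 2 days of age. A ribosome footprint is the stretch of mRNA that a ribosome shields from nuclease digestion, and the libraries are described as footprints although the labels give polyA RNA as the molecule. There were 2 libraries from cells that received Cpeb4 siRNA for 72 h (siCpeb4) and 2 from cells that received a control siRNA (control). The growth protocol, given alike for all 4 libraries, also names 250 nM of the mTOR kinase inhibitor Torin1 for 24 h, and the labels do not say which cells received it. The labels do not say whether the replicates were separate cultures, so the spread between them may be technical.

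Cilia are built and maintained by trains of intraflagellar transport (IFT) particles that run along the microtubules of the axoneme. The kinesin-2 motor carries IFT-B and IFT-A trains towards the tip, and the dynein-2 motor brings them back. The BBSome is an adaptor that links membrane proteins to these trains, and its loss causes Bardet-Biedl syndrome in humans. Axonemal dyneins are the motors that make motile cilia beat, and in humans and mice defects in some of them disturb left-right patterning of the heart. Most of these roles come from work in Chlamydomonas, mouse and human cells.

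Footprints counted in genes totalled 4889212 and 5910911 in the siCpeb4 libraries and 5863879 and 3554011 in the control libraries. The targeted gene Cpeb4, an RNA-binding protein that regulates poly(A) tails and translation, had 40 and 59 counts in siCpeb4 cells, against 351 and 253 in control cells. Levels are given in CPM, counts per 1000000 counts in genes, as the mean of a group's 2 libraries ± SD. They are not corrected for gene length, so they are compared between groups and not between genes. Footprints in bulk cells do not tell fewer cells of a type from less RNA per cell, and without RNA-seq of the same cells mRNA level and translation are not separated. The 10 cardiomyocyte markers summed to 53285 and 46753 CPM in siCpeb4 cells and to 45211 and 49825 CPM in control cells, and none was called. Myh6 was the largest term of that sum, and 8 of the 10 had a negative log2 fold change, with a median of -0.12. No endothelial, epicardial, leukocyte or smooth muscle marker was called either. The 8 markers of multiciliated cells found in the files summed to 1.64 and 0.846 CPM in siCpeb4 cells and to 1.02 and 1.41 CPM in control cells, and Cdhr3, Gmnc, Mcidas and Sntn had no count in any library.

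Of the 40 members, 36 had at least 1 footprint and 30 had enough counts to enter the fit over 11335 genes (edgeR's quasi-likelihood test). A gene was called when its p-value, adjusted by Benjamini-Hochberg over all genes tested, was under 0.05. Ift74 and Dnal1 fell, and no other member was called in either direction. Among all genes tested, 1.87% were called lower and 1.54% higher. At an unadjusted edgeR p under 0.05 the count of members was also 2, while 16.1% of all genes passed. The median log2 fold change (siCpeb4 over control) was 0.01 over the 30 members and 0.00 over all genes, with 13 members negative and 17 positive.

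**Figure D1:**
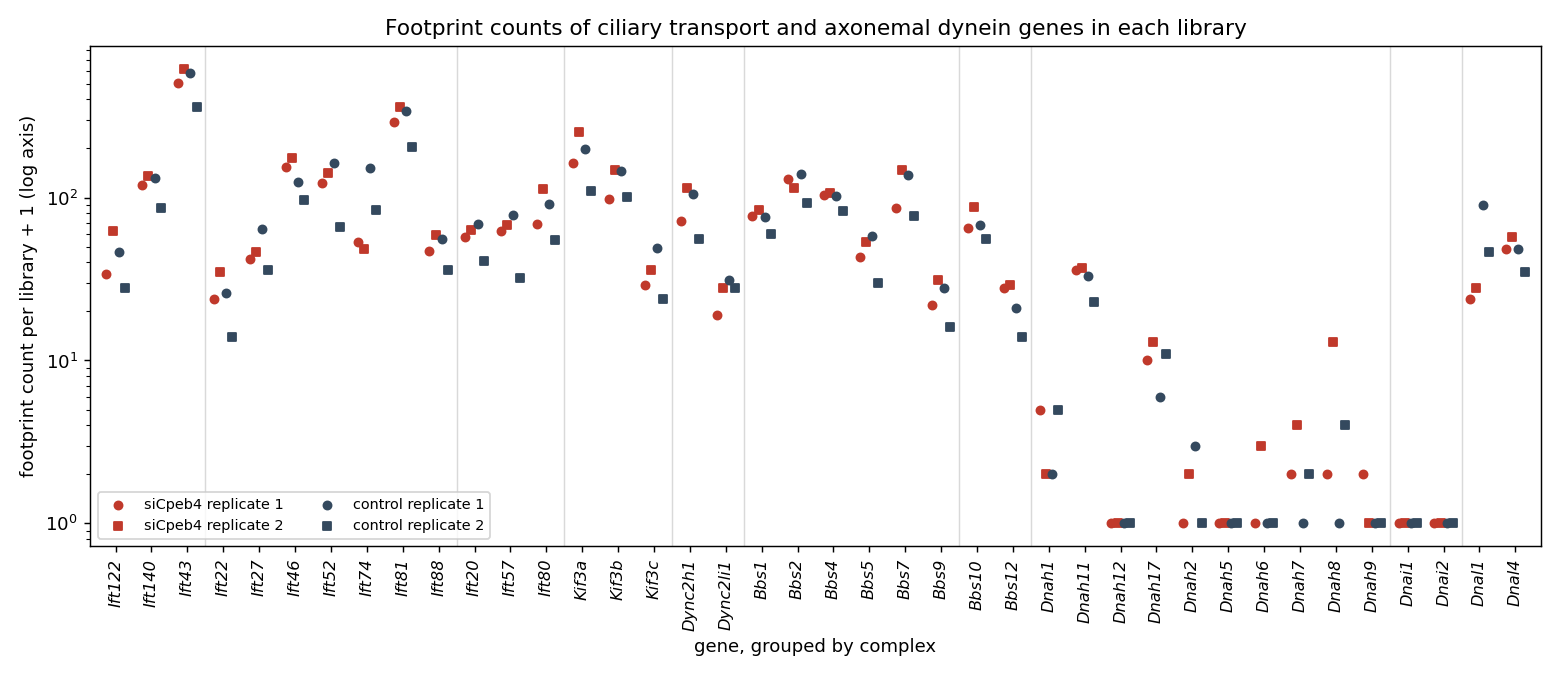
Footprint count plus 1 (log axis) of each of the 40 members in the siCpeb4 libraries (red) and the control libraries (dark blue), with circles for replicate 1 and squares for replicate 2. The IFT, motor and BBSome genes had between 13 and 617 counts in every library, whereas most axonemal heavy chains and both intermediate chains lay at or near 0.

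Ift74 (ENSRNOG00000008075) encodes an IFT-B core subunit that pairs with the Ift81 product to bind tubulin. It had 52 and 47 counts in the siCpeb4 libraries, against 150 and 83 in the control libraries. Its level was 9.29 ± 1.90 CPM in siCpeb4 cells and 24.5 ± 1.57 CPM in control cells (SD, n = 2 each). The groups did not overlap, and the highest siCpeb4 library (10.6 CPM) stood below the lowest control library (23.4 CPM). The log2 fold change was -1.44 ± 0.22 (SE), a 2.72-fold lower level.

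Ift81 (ENSRNOG00000001294), the partner of Ift74, had close levels in both groups. It had 291 and 360 counts in siCpeb4 cells and 339 and 202 in control cells, which is 60.2 ± 0.98 CPM in siCpeb4 cells and 57.3 ± 0.689 CPM in control cells (SD, n = 2 each). Its log2 fold change was 0.04 ± 0.12 (SE). For each 100 footprints on Ift81 there were 17.9 and 13.1 on Ift74 in the siCpeb4 libraries, against 44.2 and 41.1 in the control libraries. This ratio cancels library size, and its siCpeb4 values lay below both control values. Such separation was also seen between uncalled members, with 59.9 and 58.4 footprints on Kif3b per 100 on Kif3a in siCpeb4 libraries and 73.1 and 92.6 in control libraries. Dync2li1 had 25.4 and 23.9 per 100 on Dync2h1 in siCpeb4 libraries and 28.8 and 49.1 in control libraries. Bbs7 per 100 on Bbs2 overlapped, at 65.9 and 129 in siCpeb4 libraries and 98.6 and 83.5 in control libraries.

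Dnal1 (ENSRNOG00000042333) encodes a leucine-rich repeat light chain known from the outer dynein arm of Chlamydomonas and of human airway cilia. It had 23 and 27 counts in siCpeb4 cells, against 89 and 45 in control cells. Its level was 4.64 ± 0.0965 CPM in siCpeb4 cells and 13.9 ± 1.78 CPM in control cells (SD, n = 2 each), and the groups did not overlap. The siCpeb4 libraries stood at 4.70 and 4.57 CPM, against 15.2 and 12.7 CPM in the control libraries. The log2 fold change was -1.63 ± 0.27 (SE), a 3.09-fold lower level.

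Dnal4 (ENSRNOG00000015583), a light chain of the LC8 type, stood at 9.54 ± 0.0983 CPM in siCpeb4 cells and 8.79 ± 1.10 CPM in control cells (SD, n = 2 each). It had 47 and 56 counts in siCpeb4 cells and 47 and 34 in control cells, and the groups overlapped. Its log2 fold change was 0.11 ± 0.26 (SE). Per 100 footprints on Dnal4, Dnal1 had 48.9 and 48.2 in siCpeb4 libraries and 189 and 132 in control libraries.

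**Figure D2:**
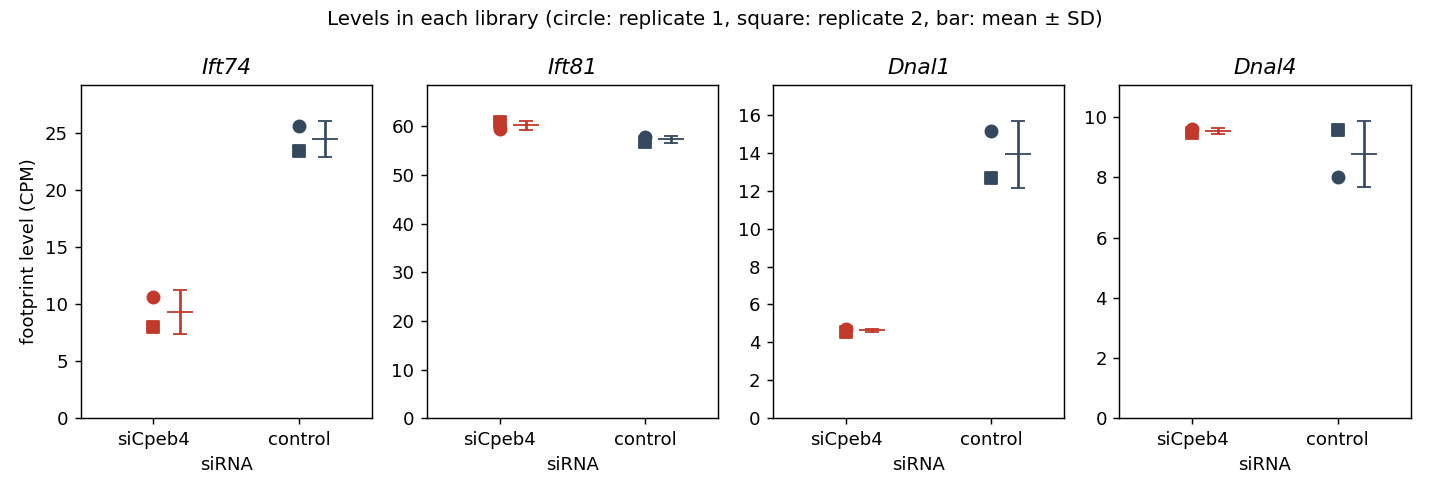
Footprint level (CPM) of Ift74, Ift81, Dnal1 and Dnal4 in each library, siCpeb4 (red) and control (dark blue), with the mean ± SD of each group (n = 2) beside the points. Ift74 and Dnal1 were lower in both siCpeb4 libraries, while Ift81 and Dnal4 stayed within 0.11 of no change on the log2 scale.

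The files count reads per gene, and a gene that overlaps another can lose or gain reads. On the GRCr8 annotation of RefSeq, where all 40 members were matched by symbol, Ift74 overlaps Lrrc19 and Dnal1 overlaps Pnma1. Lrrc19 had no count in any library. Pnma1 had 1 and 0 counts in siCpeb4 cells and 0 and 2 in control cells. In all, 7 members overlap another protein-coding gene there. The others are Dnah11 with Cdca7l, Dnah17 with Pgs1, Ift46 with Arcn1, Kif3c with Asxl2 and Ift140 with Tmem204. These neighbours had counts in every library, and none was called. Cdca7l had 13 and 16 counts in siCpeb4 cells and 27 and 13 in control cells. Pgs1 had 109 and 111 in siCpeb4 cells and 140 and 66 in control cells. Whether the counting used strand was not given in the sources used here.

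Fibroblasts, which commonly carry a primary cilium, were also present in the cultures by their markers. The 10 fibroblast markers summed to 9729 and 9199 CPM in siCpeb4 cells and to 13100 and 12068 CPM in control cells, but most of that sum is Col1a1 and Col3a1. Of the 9 fibroblast markers tested, 1 fell (Col1a1, log2 fold change -0.55 ± 0.11, SE), and Col1a2 is listed at 0 in every library. An unadjusted edgeR p under 0.05 was found for 4 of the 9, against 16.1% of all genes. These were Col1a1, Col3a1, Pdgfra and Postn, each with a negative log2 fold change. The libraries overlapped in 6 of the 9, and the siCpeb4 libraries lay below in 3, while 19.5% of all genes tested lay below. The median log2 fold change was -0.25, with 6 negative and 3 positive (Tcf21, Thy1 and Fap). The part of fibroblasts in the lower Ift74 and Dnal1 was not tested. Summed over the 38 members other than Ift74 and Dnal1, the level was 518 and 542 CPM in siCpeb4 cells and 510 and 520 CPM in control cells. Ift43 was the largest term of that sum, and how the members divide between cell types was not tested.

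In the rest of the IFT-B core, levels differed less than in Ift74. Ift46 had 152 and 174 counts in siCpeb4 cells and 123 and 95 in control cells, and its level was 30.3 ± 1.17 CPM in siCpeb4 cells and 23.9 ± 4.07 CPM in control cells (SD, n = 2 each). Its log2 fold change of 0.33 ± 0.17 (SE) was not called. Ift27, which encodes a small GTPase of the core, had 41 and 45 counts in siCpeb4 cells and 63 and 35 in control cells, and its level was 8.0 ± 0.55 CPM in siCpeb4 cells and 10.3 ± 0.633 CPM in control cells (SD, n = 2 each). Its log2 fold change was -0.41 ± 0.26. The small GTPase Ift22 had 23 and 34 counts in siCpeb4 cells and 25 and 13 in control cells, with a log2 fold change of 0.36 ± 0.35. In these 3 genes the groups did not overlap, with Ift46 and Ift22 above and Ift27 below.

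Ift52 and Ift88 are scaffold subunits of the core. Ift52 had 122 and 140 counts in siCpeb4 cells and 163 and 65 in control cells, so the siCpeb4 libraries lay between the control libraries after scaling. Ift88 had 46 and 58 counts in siCpeb4 cells and 55 and 35 in control cells, and its mean was 9.61 CPM in both groups. Summed over the 7 core genes, the level was 149 and 145 CPM in the siCpeb4 libraries and 157 and 149 CPM in the control libraries. Without Ift74 the sum was 138 and 137 CPM in siCpeb4 cells and 131 and 125 CPM in control cells. The groups overlapped narrowly with Ift74 included (with TMM-scaled library sizes the siCpeb4 sums lay below), and without it the siCpeb4 values lay above the control values under both scalings.

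The 3 peripheral IFT-B genes were close to no change. Ift80 had 68 and 112 counts in siCpeb4 cells and 90 and 54 in control cells, at 16.4 ± 3.56 CPM in siCpeb4 cells and 15.3 ± 0.109 CPM in control cells (SD, n = 2 each). Ift57 had 61 and 67 counts in siCpeb4 cells and 77 and 31 in control cells. Ift20, which also acts at the Golgi in mammalian cells, had 56 and 62 counts in siCpeb4 cells and 68 and 40 in control cells, at 11 ± 0.68 CPM in siCpeb4 cells and 11.4 ± 0.241 CPM in control cells. The libraries overlapped in all 3 genes, and their log2 fold changes lay between -0.09 and 0.08.

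IFT-A, which serves retrograde traffic and the entry of membrane proteins, was represented by 3 genes. Ift43 had 501 and 617 counts in siCpeb4 cells and 578 and 359 in control cells, which is 103 ± 1.35 CPM in siCpeb4 cells and 99.8 ± 1.73 CPM in control cells (SD, n = 2 each). Its log2 fold change was 0.02 ± 0.11 (SE), the narrowest error among the members. Ift140 had 118 and 135 counts in siCpeb4 cells and 130 and 85 in control cells, and Ift122 had 33 and 61 in siCpeb4 cells and 45 and 27 in control cells. Ift140 stood at 23.5 ± 0.916 CPM in siCpeb4 cells and 23.0 ± 1.24 CPM in control cells, and Ift122 at 8.53 ± 2.52 CPM in siCpeb4 cells and 7.64 ± 0.0545 CPM in control cells. The sum of the 3 genes was 133.4 and 137.5 CPM in siCpeb4 cells and 128.4 and 132.5 CPM in control cells, which did not overlap, whereas with TMM-scaled library sizes these sums overlapped. The log2 fold change was 0.00 ± 0.18 for Ift140 and 0.15 ± 0.29 for Ift122.

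**Figure D3:**
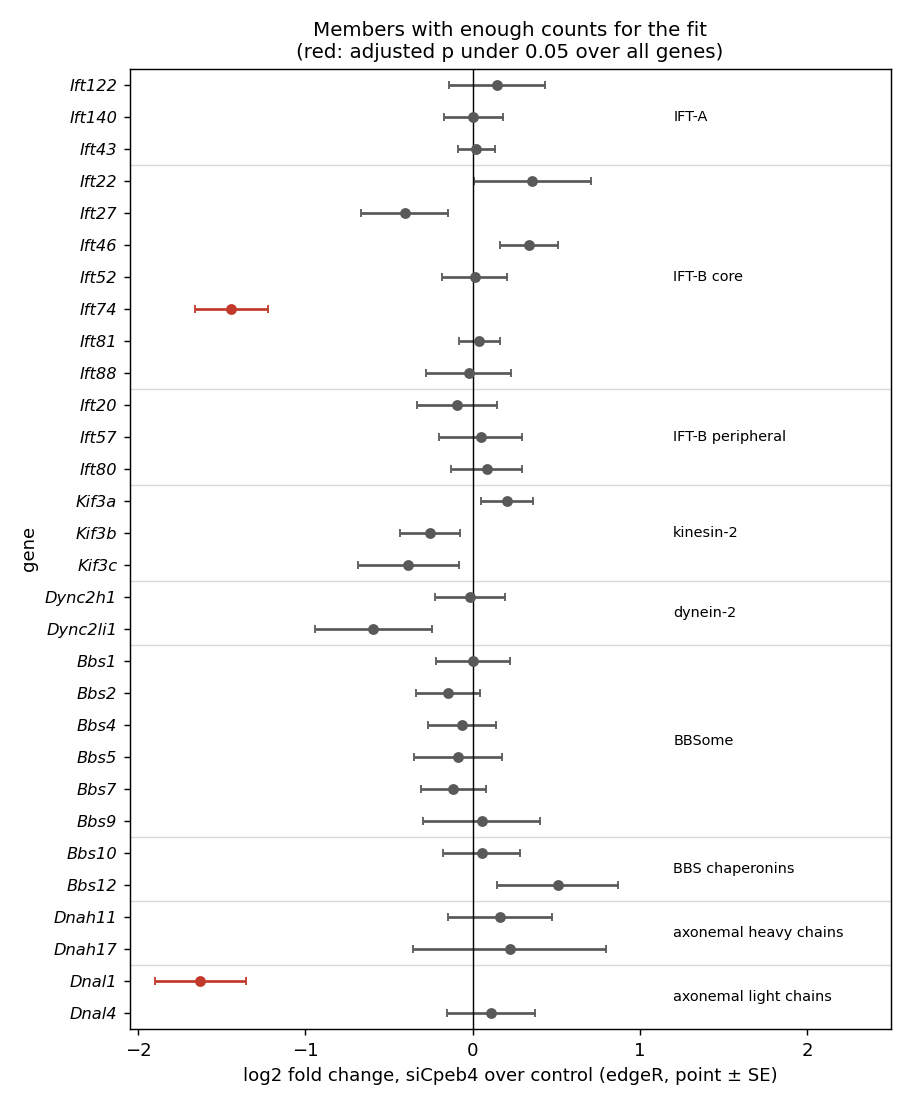
Log2 fold change of siCpeb4 over control (edgeR, point ± SE) for the 30 members with enough counts, grouped by complex; red marks genes called over all genes tested. Ift74 and Dnal1 stand at -1.44 and -1.63, and the other 28 members lie between -0.59 and 0.51.

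The motors of the trains gave mixed values. Kif3a and Kif3b encode the motor subunits of heterotrimeric kinesin-2. Kif3a had 162 and 250 counts in siCpeb4 cells and 197 and 108 in control cells, with 37.7 ± 6.48 CPM in siCpeb4 cells and 32.0 ± 2.27 CPM in control cells (SD, n = 2 each) and a log2 fold change of 0.21 ± 0.16 (SE). Kif3b had 97 and 146 counts in siCpeb4 cells and 144 and 100 in control cells, with 22.3 ± 3.44 CPM in siCpeb4 cells and 26.3 ± 2.53 CPM in control cells and a log2 fold change of -0.25 ± 0.18. Kif3c, which can pair with Kif3a in place of Kif3b in neurons, had 28 and 35 counts in siCpeb4 cells and 48 and 23 in control cells. Its level was 5.82 ± 0.137 CPM in siCpeb4 cells and 7.33 ± 1.21 CPM in control cells, with a log2 fold change of -0.38 ± 0.30. Only Kif3c had groups that did not overlap, and none of the 3 was called.

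Dync2h1, the heavy chain of dynein-2, had 71 and 113 counts in siCpeb4 cells and 104 and 55 in control cells. Its level was 16.8 ± 3.25 CPM in siCpeb4 cells and 16.6 ± 1.60 CPM in control cells (SD, n = 2 each), and the groups overlapped. Its log2 fold change was -0.02 ± 0.21 (SE). Dync2li1, the light intermediate chain that stabilises it, had 18 and 27 counts in siCpeb4 cells and 30 and 27 in control cells. Its level was 4.12 ± 0.627 CPM in siCpeb4 cells and 6.36 ± 1.75 CPM in control cells (SD, n = 2 each), with a log2 fold change of -0.59 ± 0.35 that was not called. At this depth a range of 2 SE around its estimate reached from -1.30 to 0.11.

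None of the 6 BBSome subunits found by symbol was called. Bbs2 had 129 and 113 counts in siCpeb4 cells and 139 and 91 in control cells, with 22.8 ± 5.14 CPM in siCpeb4 cells and 24.7 ± 1.34 CPM in control cells (SD, n = 2 each) and a log2 fold change of -0.15 ± 0.19 (SE). Bbs7 had 85 and 146 counts in siCpeb4 cells and 137 and 76 in control cells, with 21.0 ± 5.17 CPM in siCpeb4 cells and 22.4 ± 1.40 CPM in control cells and a log2 fold change of -0.12 ± 0.19. Bbs1, the subunit that binds the GTPase Arl6, had 76 and 83 counts in siCpeb4 cells and 75 and 59 in control cells. Bbs4 had 103 and 105 counts in siCpeb4 cells and 101 and 82 in control cells. Bbs5 had 42 and 52 counts in siCpeb4 cells and 57 and 29 in control cells. Bbs9 had 21 and 30 counts in siCpeb4 cells and 27 and 15 in control cells. In all 6 the libraries of the groups overlapped, and the sum was 93.3 and 89.5 CPM in siCpeb4 cells and 91.4 and 99.0 CPM in control cells.

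Bbs10 and Bbs12 encode chaperonin-like proteins that help to assemble the BBSome. Bbs10 had 64 and 87 counts in siCpeb4 cells and 67 and 55 in control cells, at 13.9 ± 1.15 CPM in siCpeb4 cells and 13.5 ± 2.86 CPM in control cells (SD, n = 2 each), and its log2 fold change was 0.05 ± 0.23 (SE). Bbs12 had 27 and 28 counts in siCpeb4 cells and 20 and 13 in control cells, at 5.13 ± 0.555 CPM in siCpeb4 cells and 3.53 ± 0.175 CPM in control cells, and its log2 fold change was 0.51 ± 0.36. Bbs12 had both siCpeb4 libraries above both control libraries and was not called.

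**Figure D4:**
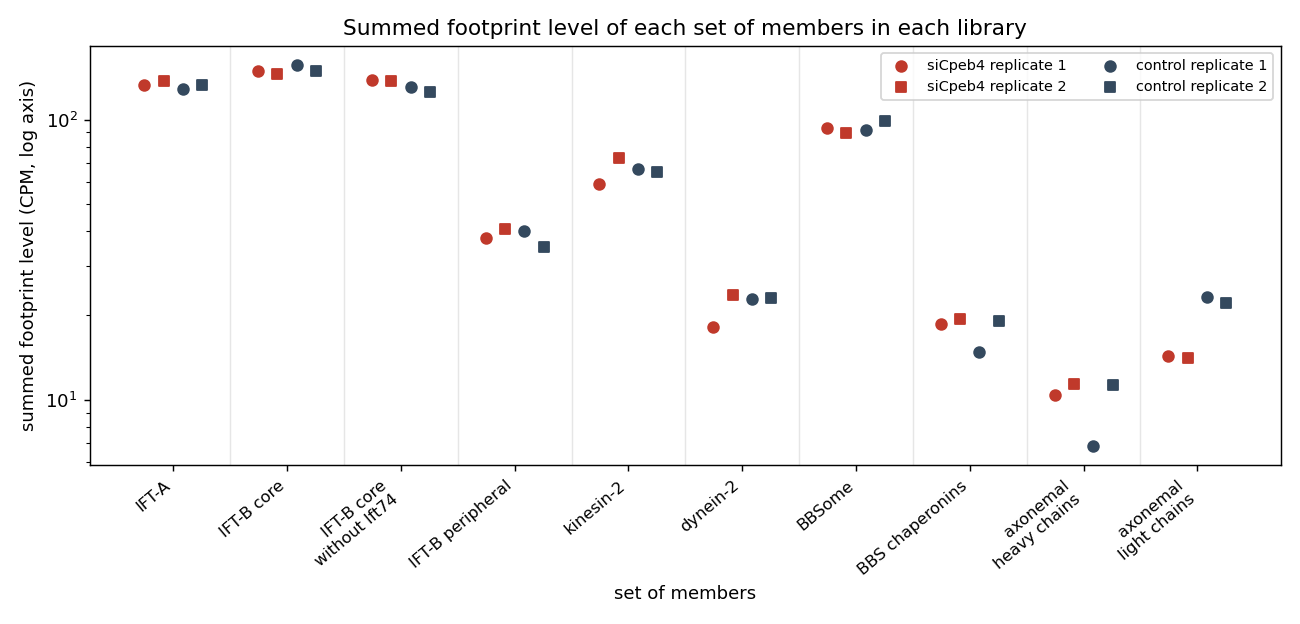
Summed footprint level (CPM, log axis) of each set of members in the siCpeb4 (red) and control (dark blue) libraries, with circles for replicate 1 and squares for replicate 2. The axonemal light chains reach at most 14.3 CPM in siCpeb4 libraries and at least 22.2 CPM in control libraries, a difference in Dnal1, since Dnal4 averaged 9.54 CPM in siCpeb4 cells and 8.79 CPM in control cells. The IFT-A sums and the IFT-B core without Ift74 lie above the control values, and the other sets overlap.

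Axonemal heavy and intermediate chains had few footprints. The 12 genes together had 51 and 67 counts in siCpeb4 cells and 40 and 40 in control cells. Dnah11, a heavy chain of the outer arm, supplied 63.1% of these counts, a share not corrected for length. It had 35 and 36 counts in siCpeb4 cells and 32 and 22 in control cells, at 6.62 ± 0.755 CPM in siCpeb4 cells and 5.82 ± 0.518 CPM in control cells (SD, n = 2 each), and its log2 fold change was 0.17 ± 0.31 (SE). Dnah17, known from the sperm flagellum, had 9 and 12 counts in siCpeb4 cells and 5 and 10 in control cells, at 1.94 ± 0.134 CPM in siCpeb4 cells and 1.83 ± 1.39 CPM in control cells, and its log2 fold change was 0.22 ± 0.58. Both passed the low-count filter, and neither was called. Each overlaps a gene with counts in every library (Cdca7l for Dnah11, Pgs1 for Dnah17).

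The other heavy chains gave counts too low for the fit. Dnah8, a heavy chain of the sperm flagellum, had 1 and 12 counts in siCpeb4 cells and 0 and 3 in control cells. The ratio of the summed counts, scaled to library totals, was 3.78 (exact 95% interval 1.04 to 20.7, from counting error alone), and 12 of the 13 siCpeb4 counts came from replicate 2. Dnah1 had 4 and 1 counts in siCpeb4 cells and 1 and 4 in control cells, and Dnah7 had 1 and 3 in siCpeb4 cells and 0 and 1 in control cells. Dnah2, Dnah6 and Dnah9 had 3 counts at most over all libraries. Dnah5, Dnah12, Dnai1 and Dnai2 are listed at 0 in every library. The fibroblast collagen gene Col1a2 is listed at 0 as well, although Col1a1 stood at 5723 ± 493 CPM in siCpeb4 cells and 8227 ± 509 CPM in control cells (SD, n = 2 each). A 0 in these files is therefore given as listed, with no upper limit on the level.

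Over all members tested, 5 had both siCpeb4 libraries below both control libraries, 5 had both above, and 20 overlapped. Among all genes tested, 19.5% lay below and 26.5% above in this way. The members below were Ift74, Dnal1, Ift27, Dync2li1 and Kif3c, and those above were Ift22, Ift43, Ift46, Ift81 and Bbs12. Of the 28 uncalled members, a range of 2 SE around the log2 fold change covered 0 in all 28. In 27 of them it stayed above -1, and in Dync2li1 it reached -1.30. Its upper end was highest in Dnah17 (1.37), Bbs12 (1.24) and Ift22 (1.06), so a doubling lay within the range in these genes. The same range reached from -1.88 to -1.01 in Ift74 and from -2.18 to -1.08 in Dnal1. Both overlapped the range of Dync2li1.

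Subunits of the same complexes that carry other symbols were described from lists chosen with earlier results of these data known. None of 5 IFT-B subunits tested, 3 IFT-A subunits, 5 BBSome genes and 9 motor partners was called by edgeR. An unadjusted edgeR p under 0.05 was found for 4 motor partners and no gene of the other 3 lists, against 16.1% of all genes. The log2 fold change was negative in Dynlrb1 (-0.28), Dynll1 (-0.25) and Dynlt3, and positive in Kifap3 (0.27). Of the 9 motor partners, 7 were negative and 2 positive. The medians of the log2 fold change were 0.02 (IFT-B), -0.21 (IFT-A), 0.01 (BBSome) and -0.16 (motor partners), against 0.00 over all genes. In the IFT-B list the smallest p was that of Traf3ip1, the gene for IFT54, with 65 and 70 counts in siCpeb4 cells and 64 and 32 in control cells and a log2 fold change of 0.28 ± 0.24 (SE). Wdr19, the gene for IFT144, had 82 and 106 counts in siCpeb4 cells and 81 and 44 in control cells, with a log2 fold change of 0.37 ± 0.21. Mkks, a chaperonin-like partner of Bbs10 and Bbs12, had 26 and 24 counts in siCpeb4 cells and 19 and 9 in control cells, with a log2 fold change of 0.62 ± 0.39. Dynlt3, a light chain shared by cytoplasmic dyneins, had 54 and 59 counts in siCpeb4 cells and 99 and 50 in control cells, with a log2 fold change of -0.61 ± 0.23. None of these was called.

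Genes of other ciliary structures were described in the same way. Of 9 axoneme and dynein assembly genes tested, 1 rose, while 1.54% of all genes tested were called higher. At an unadjusted edgeR p under 0.05 the list held 2 genes, the other with a negative log2 fold change. The median of the list was -0.13, with 6 genes negative and 3 positive. The gene called was Cfap20, which encodes a protein of the ciliary axoneme. Cfap20 stood at 43.6 ± 0.206 CPM in siCpeb4 cells and 26.0 ± 0.614 CPM in control cells (SD, n = 2 each). It had 214 and 257 counts in siCpeb4 cells and 150 and 94 in control cells, and the log2 fold change was 0.72 ± 0.15 (SE), with an edgeR adjusted p of 0.00643. The call ended when control replicate 1 was left out (edgeR adjusted p = 0.0821), although the log2 fold change was still 0.68. DESeq2 did not make the call either (adjusted p = 0.0507), at 0.72 on the same scale. Of the 37 genes of that list in the files, 16 had no count in any library, among them Hydin, Spag17 and Dnali1.

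No gene was called by edgeR among 18 of the transition zone, 24 of the basal body and ciliary membrane, 13 of the Hedgehog pathway, which signals through the primary cilium, and 19 of cytoplasmic dynein 1 and dynactin. At an unadjusted edgeR p under 0.05 these lists held 2, 6, 0 and 2 genes, against 16.1% of all genes. Their medians were -0.07, 0.04, 0.10 and -0.03. Tmem231 of the transition zone had 6 and 4 counts in siCpeb4 cells and 16 and 10 in control cells, with a log2 fold change of -1.58 ± 0.55 (SE). Sclt1, of the distal appendages of the basal body, had 45 and 63 counts in siCpeb4 cells and 36 and 14 in control cells, with a log2 fold change of 0.90 ± 0.30. Gas1, a Hedgehog co-receptor, had 175 and 166 counts in siCpeb4 cells and 159 and 71 in control cells, with a log2 fold change of 0.38 ± 0.18. Dctn6, a dynactin subunit, had 349 and 446 counts in siCpeb4 cells and 519 and 345 in control cells, with a log2 fold change of -0.36 ± 0.12.

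**Figure D5:**
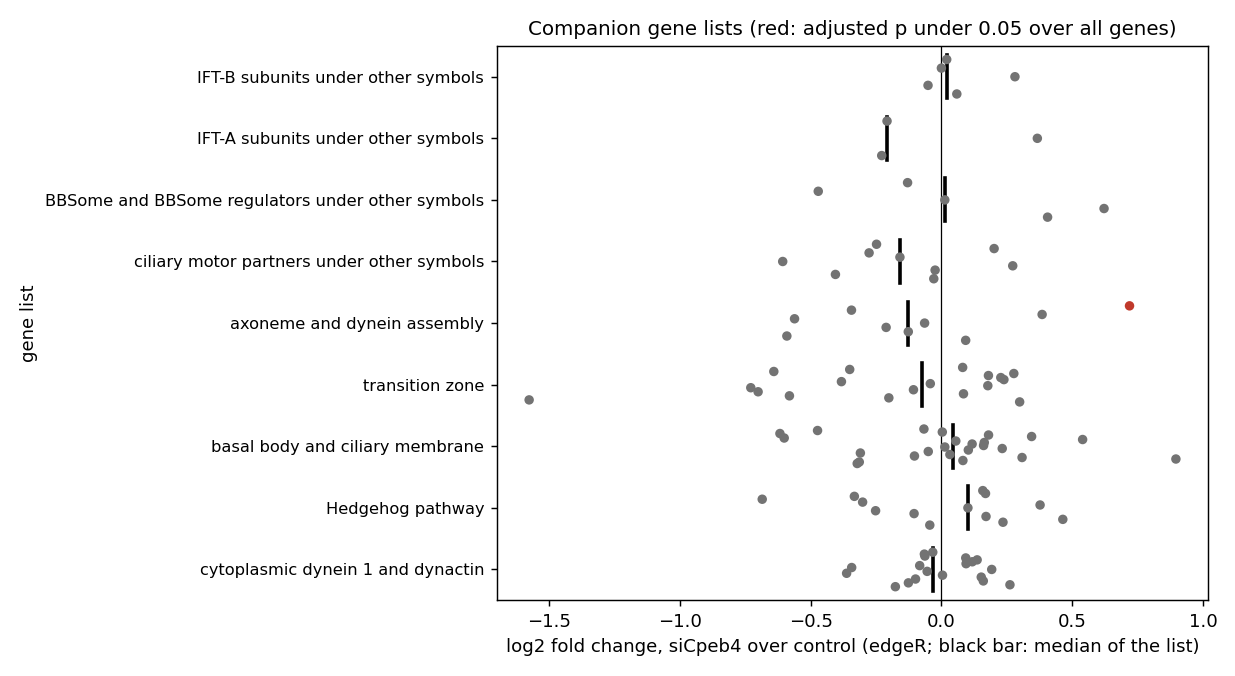
Log2 fold change of siCpeb4 over control (edgeR) for each tested gene of 9 companion lists, with a black bar at the median of each list. The single red point is Cfap20, at 0.72, and the list medians lie between -0.21 and 0.10.

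Ciliary genes are known targets of RFX transcription factors, which bind the X-box, and an arm of that motif was looked for as a feature that the symbols did not use. The letters GTTGCC were searched on both strands from 250 bases before to 50 bases after the most upstream annotated start (RefSeq, GRCr8). Of the 35 members with a promoter sequence, 13 held it (37.1%), against 12.2% of 27457 promoters of all genes and 12.3% of 19005 promoters of protein-coding genes. The symmetrical X-box was searched only as a fixed pattern, with both arms and a set spacing between them. That pattern was found in 0 of the 35 members and in 0.466% of all promoters. Forms with another spacing or with a mismatch in an arm were not searched, so members may still hold such forms. The members with GTTGCC were Bbs1, Bbs2, Bbs5, Dnah2, Dnah11, Dnai2, Dync2li1, Ift20, Ift27, Ift81, Ift88, Kif3a and Kif3c. Dnal1 did not hold these letters in its window. Members without a promoter sequence here were Ift57, Ift74, Ift80, Bbs10 and Dync2h1. These matches are letters in a window and not sites shown to be bound. The 4 windows shown hold a match at the start or shortly before it and come from different complexes, with the match in capitals (GGCAAC is GTTGCC on the other strand).
Ift81, chr12:39618600-39618627, plus strand: catcactgcatGGCAACcGTTGCCaagg
Dync2li1, chr6:15778164-15778191, minus strand: gtcgctgccatGGCAACcaaggagcctg
Bbs5, chr3:74818590-74818617, plus strand: aaagccgatgcGTTGCCttggtgtccat
Dnah2, chr10:54766055-54766082, minus strand: cccggccccgaGTTGCCatggcgacgcg
The Ift81 window holds the letters on both strands, 1 base apart, in a gene whose footprint level was close in both groups. Dnah2 holds them too, and had 0 and 1 counts in siCpeb4 cells and 2 and 0 in control cells.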

How the data were processed

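Ribosome footprints were measured in 2 siCpeb4 and 2 control libraries. The deposited files hold raw footprint counts per Ensembl gene with no normalisation. Bowtie2, STAR 2.7 and HTSeq 0.12 were used with Rnor_6.0, per the submitters' processing notes, which do not give their roles. File names give uniquely mapped footprints 29 to 34 nt long (29 to 33 nt in siCpeb4 replicate 2). Totals and tests leave out the 5 summary lines of HTSeq, and reads with no feature were 4.42% to 4.63% of the reads counted.

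Members, gene lists and tests were chosen with earlier results of these data known. The fit used edgeR 4.0.16 in R 4.3.3 (quasi-likelihood F-test, TMM normalisation, filterByExpr with a minimum count of 10, group as the only term, two-sided, Benjamini-Hochberg adjustment over 11335 genes, threshold 0.05). SE was derived from the F statistic. CPM used library totals. With 2 libraries a group, an exact permutation test cannot go below p = 0.333, so none was run. Every member with enough counts could be named; called members are given in full, with the members of each complex that had the highest level and the smallest p. From companion lists, called genes or the gene with the smallest p are named; Lrrc19, Pnma1, Hydin, Spag17, Dnali1 and the multiciliated markers at 0 were named after their values were seen. Levels per coding length were planned and not computed, since no coding lengths were used here. Alternatives were RLE, upper-quartile or no between-library normalisation, other filters, DESeq2 1.42.0, limma-voom (limma 3.58.1), robust edgeR, a replicate block, each library left out and a threshold of 0.10. In counts simulated for this comparison (11216 genes), recovery was 16% of genes changed 1.3-fold, 36% at 1.5-fold, 88% at 2-fold and 86% at 3-fold. There were 2 false calls among 115. The changed genes were drawn from all genes that passed the filter, so these shares are not those of the members.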

Additional observations from a re-analysis of the deposited data

How the results depend on the processing

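Ift74 and Dnal1 were called lower, and no member higher, under each normalisation and filter tried, in limma-voom, in robust edgeR, at a threshold of 0.10, with either block and with each library left out (edgeR). The log2 fold change ranged from -1.67 to -1.22 for Ift74 and from -1.73 to -1.49 for Dnal1. DESeq2 gave no adjusted p for 4615 genes of low mean count, 21 members among them, including both; without its independent filtering, a setting chosen after seeing the data, it called both. The count over all genes was 386, against 606 without the low-count filter, 192 in DESeq2, 168 in DESeq2 without independent filtering and 629 at a threshold of 0.10. It was 212 to 324 with each library left out, lowest without control replicate 1. The companion lists held 1 call (Cfap20), against 2 without the filter (Cfap20 and Sclt1) and 0 in DESeq2 with or without independent filtering (adjusted p = 0.0507 and 0.0805); with each library left out they held 0 or 1, with 0 without control replicate 1. The replicate differences of the groups correlated at r = -0.11 across genes, so no strong effect shared by replicate number was seen. The labels state no pairing, and this value cannot tell whether the libraries were prepared in pairs. With the replicate number as a block edgeR called 400 genes, 2 members and 1 companion gene, and with crossed numbers, chosen after seeing the data, 479 genes. Leaving out 1 library leaves a lone library, assumed to vary like the other group. Depth limits the members below the filter to counts.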
